A study of Saccharomyces cerevisiae with 28 samples.

Results

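The 5 ribosomal stalk genes of Saccharomyces cerevisiae, RPP0 (YLR340W), RPP1A (YDL081C), RPP1B (YDL130W), RPP2A (YOL039W) and RPP2B (YDR382W), were followed through PAR-CLIP of 2 La-related proteins (LARPs) and through total RNA. They were chosen by systematic name, as 5 of 9217 features in the count tables. PAR-CLIP used a strain with genomic SLF1 fused to a TAP tag (Slf1-TAP) and a strain with genomic SRO9 fused to the same tag (Sro9-TAP). Each strain was grown with 4-thiouracil and sampled 15 min after 0.4 mM H2O2 (H2O2) or without peroxide (untreated), with 2 libraries per group and 8 in all. Total RNA came from sro9Δ, slf1Δ and wild-type (WT) cells, which carried no tag, again after H2O2 or untreated and with 2 libraries per group (12 libraries). A further 8 total RNA libraries came from the TAP-tagged strains. Replicates were duplicate cultures per the study's methods. For total RNA, each culture was split into a treated and an untreated part. The labels do not say which libraries came from the same culture, so the fits treated libraries as independent. Nothing in the labels says how far replicates differ in origin, so p-values measure the spread between these libraries only.

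The stalk is the flexible arm of the large ribosomal subunit that recruits and activates the translational GTPases. P0, encoded by RPP0, is the scaffold that anchors the arm to the subunit next to the uL11 protein of RPL12A and RPL12B. It carries pairs of the small acidic proteins P1 and P2, each encoded by a pair of paralogous genes in yeast (RPP1A and RPP1B, RPP2A and RPP2B). All the proteins end in nearly the same acidic tail, which contacts elongation factors and can activate the eIF2α kinase Gcn2. LARPs share an RNA-binding La module. Sro9 and Slf1 are paralogous cytoplasmic yeast LARPs found with translating ribosomes.

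In PAR-CLIP, 4-thiouridine crosslinked to a protein is read as a T-to-C conversion, and overlapping reads are grouped into clusters. A cluster was kept as a site if it held at least 5 reads, at least 2 conversions and 11 to 100 nt. It was given to a gene if its mode (the position of strongest conversion signal) lay in the open reading frame (ORF) or within 200 nt after the stop codon. The kept clusters held 342238 to 890669 reads per library in 709 to 9022 clusters. Kept reads on protein-coding genes were 22310 to 36957 of 342238 to 544490 per Slf1-TAP library. In Sro9-TAP they were 177209 to 260367 of 678206 to 890669. Levels below are scaled to all kept reads, so they do not correct for this difference. The LARPs were not compared per read on protein-coding genes. Because only clusters are listed, a gene at 0 is one with no listed cluster that met these limits, which is not the same as a gene with no read. In total RNA, 172267 to 21094169 counts per library lay outside the rRNA locus. The lowest values were 172267 in slf1Δ H2O2 replicate 1 and 242555 in sro9Δ untreated replicate 1, in a set where rRNA took 1.65 to 94.8% of all counts. SRO9 had at most 1 count in sro9Δ libraries, against 45 to 3187 in the other untagged libraries. SLF1 had 0 counts in slf1Δ libraries, against 6 to 263 elsewhere. SRX1, the peroxide-induced sulfiredoxin gene, had 1068 to 1877 counts per 1000000 (CPM) in untagged H2O2 libraries and at most 5.0 CPM in untreated ones. The tagged total RNA went against its labels at this gene, with 0.977 to 3.61 CPM in the libraries labelled H2O2 and 408 to 1066 CPM in those labelled untreated. Those 8 libraries therefore entered no test.

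The stalk genes carried 142 clusters over the 8 PAR-CLIP libraries, of which 123 were kept with 8621 reads. Sro9-TAP had sites on all 5 genes in both conditions. Slf1-TAP had kept clusters in both replicates of both conditions on RPP0, RPP1A and RPP2A only. In Slf1-TAP untreated, RPP1A had 2 sites against 3 each on RPP1B and RPP2B. After merging replicates, Slf1-TAP gave 11 sites after H2O2 and 18 in untreated cells. Sro9-TAP gave 38 sites after H2O2 and 40 in untreated cells. Most lay in the ORF, 10 of 11 in Slf1-TAP H2O2 and 28 of 38 in Sro9-TAP H2O2. Sites were rarely shared by replicates. Only 2, 2, 7 and 4 of them were found in both replicates of Slf1-TAP H2O2, Slf1-TAP untreated, Sro9-TAP H2O2 and Sro9-TAP untreated. Sites were matched across datasets where a mode lay within 10 nt of the next, so a position can span more than 10 nt. They fell on 67 positions, of which 10 were used by both LARPs, 13 by Slf1-TAP alone and 44 by Sro9-TAP alone. The Slf1-TAP libraries had fewer clusters throughout, so these counts of positions are not a comparison at equal sampling.

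**Figure D1:**
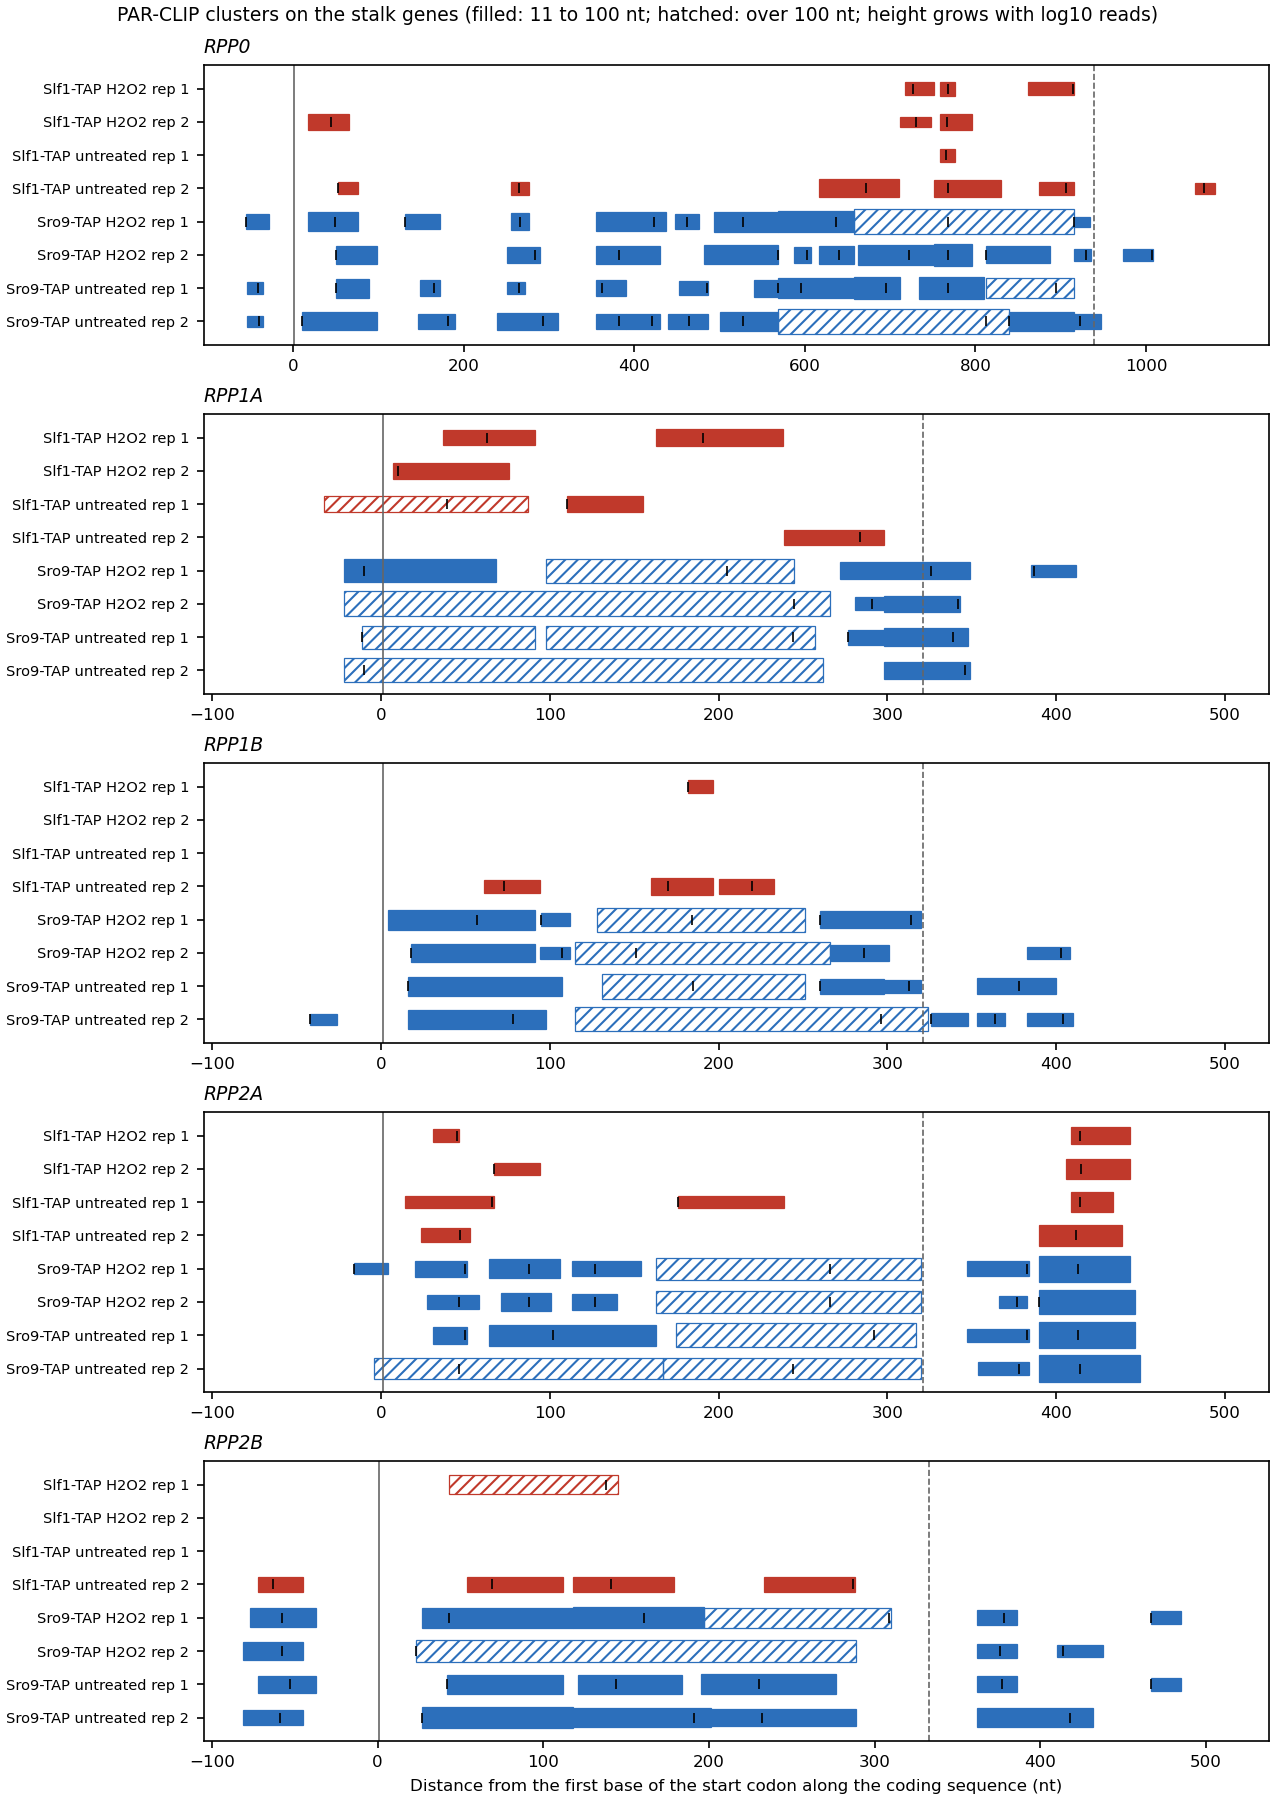
Map of the clusters on the 5 stalk mRNAs by library, with the distance from the start codon (nt) on the x axis and a row per library (filled bars are 11 to 100 nt, hatched bars are longer, ticks are modes, bar height grows with log10 reads), Slf1-TAP above Sro9-TAP and H2O2 above untreated. RPP2A shows a cluster in all 8 libraries after its stop codon, and RPP0 shows clusters along its whole ORF in Sro9-TAP, while RPP2B has no kept cluster in Slf1-TAP H2O2.

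Sites of both LARPs and both conditions were matched by mode at 5 of the 67 positions. RPP0 held 3 of them, with modes at 44 to 53, 765 to 768 and 906 to 930 nt from the start codon. The last is a chain of neighbouring modes. Its Slf1-TAP clusters ended at 915 nt and its Sro9-TAP clusters began at 916 nt, so these clusters shared no base. The Sro9-TAP H2O2 cluster there, with 9 reads, also fits 3 places in the genome. RPP2A held the other 2, at 45 to 50 nt and at 412 to 415 nt, which is after its 321-nt ORF. The sequences below are shown because these are the RPP2A and RPP0 positions with the most reads among the 5. They are read on the + strand of build R64, at chrXV:254702-254731 for RPP2A and chrXII:806638-806667 for RPP0. The RPP0 stretch spans 752 to 781 nt of the 939-nt ORF, so its label is loose, and the position at 906 to 930 nt lies closer to the end. In the RPP2A line, capitals mark the 25 nt inside the cluster of every library. In the RPP0 line, they mark the 18 nt shared by the clusters with their mode there.
RPP2A after the stop: tttACGGCGACCATACTCTTTTTTTCCTaa
RPP0 near the end of the ORF: ttgctgCTTCCTACCACTACCCTGaaattg
The RPP2A stretch holds 13 T in 30 bases and the RPP0 stretch 10, and both occur at 1 place in the genome. Only T positions can give a conversion.

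RPP0, the scaffold of the stalk, had 42 and 59 kept reads in Slf1-TAP H2O2 and 10 and 123 in Slf1-TAP untreated. It had 476 and 656 in Sro9-TAP H2O2 and 803 and 323 in Sro9-TAP untreated. Sro9-TAP libraries were all above Slf1-TAP libraries, without correction for the smaller share of Slf1-TAP reads on protein-coding genes. The conditions overlapped within each LARP. As reads per 1000000 kept reads (rpm), RPP0 had 77.1 and 171 rpm in Slf1-TAP H2O2 against 23.6 and 359 rpm in Slf1-TAP untreated. In Sro9-TAP it had 702 and 937 rpm after H2O2 against 902 and 464 rpm untreated. The RPP0 position printed above, at 765 to 768 nt, had its mode in 7 of 8 libraries and lay inside a cluster of all 8. Its clusters held 15 and 25 reads in Slf1-TAP H2O2, 10 and 36 in Slf1-TAP untreated, 620 and 174 in Sro9-TAP H2O2 and 270 and 446 in Sro9-TAP untreated. The clusters with 620 and 446 reads were 258 and 270 nt long and so were not kept as sites.

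RPP2A, which encodes a P2 protein, had the most kept reads of the 5 genes, 4123 over the 8 libraries. It had 46 and 92 reads in Slf1-TAP H2O2 and 140 and 169 in Slf1-TAP untreated. In Sro9-TAP it had 1034 and 671 reads after H2O2 and 977 and 994 untreated. The lowest Sro9-TAP library was above the highest Slf1-TAP library, also in rpm, with 84.5 to 494 rpm in Slf1-TAP and 958 to 1525 rpm in Sro9-TAP. The rpm scale does not correct for the smaller share of Slf1-TAP reads on protein-coding genes. Within Slf1-TAP the H2O2 libraries, at 84.5 and 266 rpm, were both below the untreated ones, at 330 and 494 rpm. Of the 2830 genes tested, 139 (4.91%) had this order, and of the 5 stalk genes 1. Only a gene with a kept cluster in both untreated libraries can show it, as 297 genes and 3 stalk genes had. The order was thus far more common among genes able to show it than 4.91%. A single cluster after the stop codon accounted for most of the RPP2A reads. It held 34 and 84 reads in Slf1-TAP H2O2, 125 and 154 in Slf1-TAP untreated, 875 and 563 in Sro9-TAP H2O2 and 780 and 984 in Sro9-TAP untreated. Its mode was 91 to 94 nt after the stop codon in 7 libraries and at 69 nt in Sro9-TAP H2O2 replicate 2.

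The RPP2A cluster ranked high among all kept clusters on mRNAs. By reads it was number 173 of 1009 and 43 of 408 in Slf1-TAP H2O2, and 22 of 664 and 16 of 1397 in Slf1-TAP untreated. In Sro9-TAP it was number 13 of 7919 and 22 of 6490 after H2O2, and 15 of 5770 and 6 of 5584 untreated. As a share of all reads in RPP2A clusters of any length, it held 73.9 and 91.3% in Slf1-TAP H2O2 and 89.3 and 91.1% in Slf1-TAP untreated. In Sro9-TAP it held 68.6 and 67.5% after H2O2 and 55.2 and 75.4% untreated. The shares of the LARPs overlapped in a single library, Slf1-TAP H2O2 replicate 1. With conditions pooled, the share averaged 86.4% ± 8.38 in Slf1-TAP and 66.7% ± 8.41 in Sro9-TAP (SD, n = 4 each), and an exact two-sided permutation test gave p = 0.0571. The level of the cluster averaged 262 ± 160 rpm in Slf1-TAP and 1096 ± 301 rpm in Sro9-TAP (SD, n = 4 each), with exact permutation p = 0.0286, the smallest that 4 against 4 allows. Both gave 0.0571 after Benjamini-Hochberg adjustment over these 2 exact permutation tests, which were chosen after the values were seen. Neither difference thus passed 0.05. The level is over all kept reads, so the smaller share of Slf1-TAP reads on protein-coding genes enters its difference. A level per read on protein-coding genes was not tested. Over kept RPP2A reads alone, the cluster's share was 84.6 and 83.9% in Sro9-TAP H2O2 and 79.8 and 99.0% in Sro9-TAP untreated, with 3 of the 4 inside the Slf1-TAP range, so the difference in share rests on the long Sro9-TAP clusters in the ORF. The share of T positions in the cluster's reads that were read as C was 3.65 to 5.48% in Slf1-TAP and 7.82 to 8.94% in Sro9-TAP. The same quantity over all kept mRNA clusters was 5.86 to 9.97% in Slf1-TAP and 10.8 to 12.8% in Sro9-TAP, so the libraries differed in conversion as a whole.

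**Figure D2:**
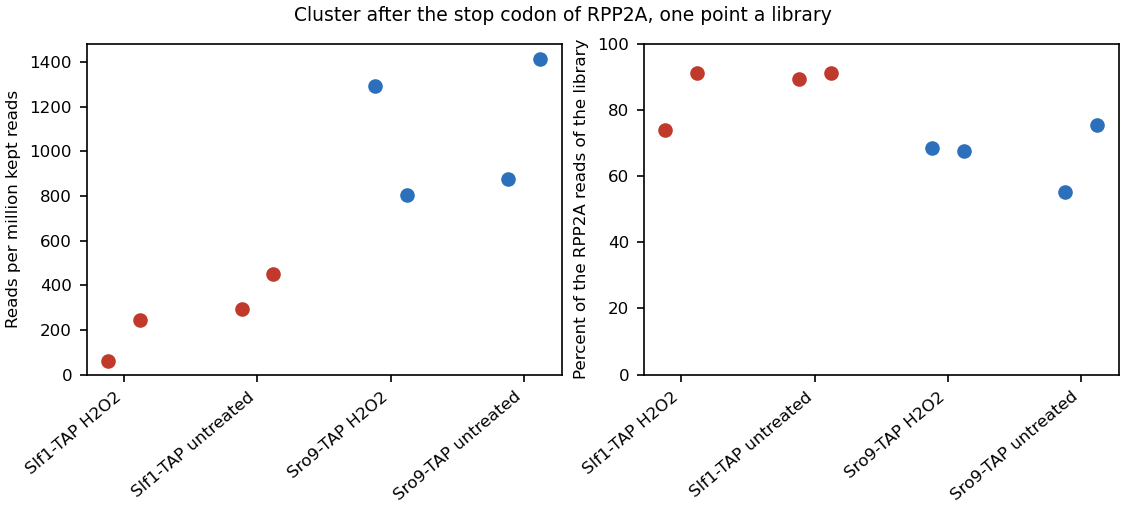
The RPP2A cluster after the stop codon in each library, as rpm and as percent of RPP2A reads in clusters of all lengths, with Slf1-TAP left of Sro9-TAP and H2O2 left of untreated. Slf1-TAP libraries lie at 62.4 to 450 rpm and Sro9-TAP libraries at 804 to 1413 rpm, while the percent is higher in Slf1-TAP apart from 1 library that overlaps. The rpm are over all kept reads, not over reads on protein-coding genes.

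Most RPP2A reads lay after the stop codon in each dataset. Over clusters of all lengths, they made up 85.5, 90.3, 69.7 and 65.6% of RPP2A reads in Slf1-TAP H2O2, Slf1-TAP untreated, Sro9-TAP H2O2 and Sro9-TAP untreated. On the same basis the other members reached at most 22.7%, the value of RPP1A in Sro9-TAP untreated. Over kept clusters alone, RPP2A had 86.2% after the stop codon in Sro9-TAP H2O2 and 90.5% in Sro9-TAP untreated. RPP1A then also had most of its few kept reads there, 87.7% of 81 in Sro9-TAP H2O2 and 83.2% of 119 in Sro9-TAP untreated, since its long ORF clusters were not kept. Among all genes with at least 50 reads in clusters of all lengths, a majority of reads after the stop codon was found in 14.4% of genes in Slf1-TAP H2O2, 12.8% in Slf1-TAP untreated, 12.5% in Sro9-TAP H2O2 and 11.2% in Sro9-TAP untreated.

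RPP1A and RPP1B encode the P1 proteins. RPP1A had 67 and 31 kept reads in Slf1-TAP H2O2, 37 and 17 in Slf1-TAP untreated, 43 and 38 in Sro9-TAP H2O2 and 68 and 51 in Sro9-TAP untreated. It was thus at a similar level in both LARPs, with 49.7 to 123 rpm in Slf1-TAP and 54.3 to 76.3 rpm in Sro9-TAP. The 31 reads of Slf1-TAP H2O2 replicate 2 and the 37 of Slf1-TAP untreated replicate 1 held 2 conversions each, the minimum. Their T positions were read as C at 0.503 and 0.460%, against 5.86 and 9.97% over the kept mRNA clusters of these libraries. RPP1B had 10 and 0 kept reads in Slf1-TAP H2O2 and 0 and 83 in Slf1-TAP untreated. It had 204 and 95 in Sro9-TAP H2O2 and 141 and 107 in Sro9-TAP untreated. By the modes of kept clusters, the LARPs shared few positions on each P1 gene, 1 of 8 on RPP1A and 1 of 15 on RPP1B. Long Sro9-TAP clusters that were not kept covered most of the Slf1-TAP modes, so this does not show different positions. In Sro9-TAP H2O2 replicate 2, a cluster from -22 to 265 nt covered the Slf1-TAP modes of RPP1A at 10, 63, 110 and 191 nt. In Sro9-TAP untreated replicate 1, a cluster from 131 to 250 nt covered those of RPP1B at 170, 182 and 220 nt. RPP1B is the only stalk gene with an intron (301 nt). A 157-nt Sro9-TAP H2O2 cluster with 284 reads had its first 6 nt inside that intron, and no other RPP1B cluster reached into it.

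RPP2B, the second P2 gene, had no kept cluster in either Slf1-TAP H2O2 library and 0 and 64 reads in Slf1-TAP untreated. It had 280 and 18 reads in Sro9-TAP H2O2 and 305 and 347 in Sro9-TAP untreated. The Slf1-TAP reads of RPP2B therefore came from 1 library of 4. RPP2B was not without signal in Slf1-TAP H2O2. Replicate 1 had a 102-nt cluster with 63 reads, which missed the length limit by 2 nt. Of its 11 matched positions 8 were found in Sro9-TAP alone, 2 in Slf1-TAP alone and 1 in both.

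**Figure D3:**
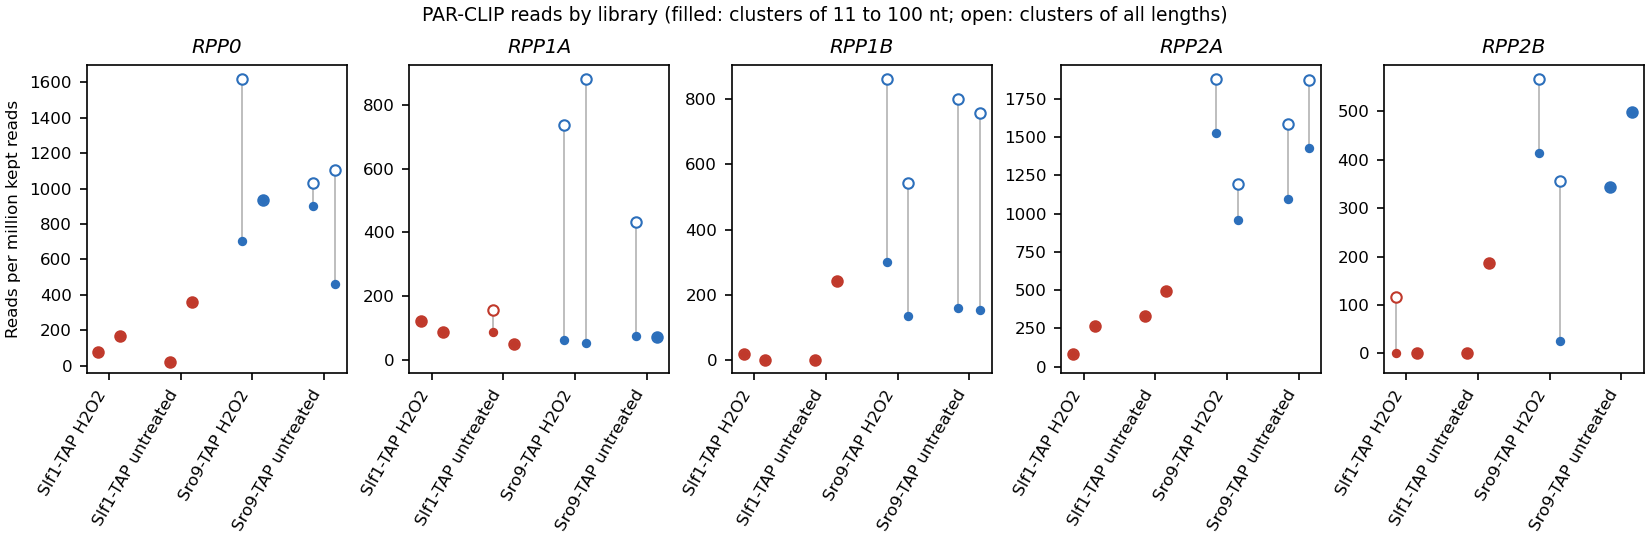
PAR-CLIP rpm for each stalk gene, a point per library, Slf1-TAP left of Sro9-TAP and H2O2 left of untreated, with clusters of 11 to 100 nt as filled points and clusters of all lengths as open points. On this scale of all kept reads, RPP0 and RPP2A are higher in all Sro9-TAP libraries than in all Slf1-TAP libraries, whereas the filled points of RPP1A overlap.

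The upper limit on cluster length removed many of the reads on these genes. Clusters over 100 nt numbered 19 and held 5773 of 14394 reads. The limit kept 67.8% of the reads on RPP0, 78.2% on RPP2A and 71.8% on RPP2B, but 20.3% on RPP1A and 27.9% on RPP1B. In Sro9-TAP H2O2, 46.5% of stalk gene reads were in clusters over 100 nt, against 19.8% for the 132 other cytosolic ribosomal protein genes. In Sro9-TAP untreated, the shares were 38.9% for the stalk genes and 23.1% for the others. In Slf1-TAP they were 15.4% against 0.717% after H2O2 and 4.46% against 3.21% untreated. Over all protein-coding genes the share was 81.9% in Slf1-TAP H2O2, 45.9% in Slf1-TAP untreated, 35.5% in Sro9-TAP H2O2 and 38.2% in Sro9-TAP untreated. Set against all genes, the stalk share was thus higher in Sro9-TAP H2O2, about equal in Sro9-TAP untreated and lower in Slf1-TAP. The all-gene share in Slf1-TAP is not that of a typical mRNA, because its long clusters lay mostly after stop codons. At all lengths, 82.7% of all-gene reads in Slf1-TAP H2O2 and 48.1% in Slf1-TAP untreated lay there, against 11.1 and 18.4% of kept reads. With clusters of all lengths, RPP1A had 737 and 883 rpm in Sro9-TAP H2O2 and 433 and 73.3 rpm in Sro9-TAP untreated. In Slf1-TAP, where long clusters were rare, it had 123 and 89.7 rpm after H2O2 and 158 and 49.7 rpm untreated. Placement by mode also bore on RPP1A, because some long Sro9-TAP clusters with a mode just before the start codon run into the ORF. With every cluster that overlaps the gene, RPP1A had 1085 and 883 rpm in Sro9-TAP H2O2 and 792 and 671 rpm in Sro9-TAP untreated, and its Slf1-TAP values were those just given. The similar levels of RPP1A in both LARPs were thus seen with the length limit and placement by mode, and not with every overlapping cluster. RPP1B, likewise, had 861 and 541 rpm in Sro9-TAP H2O2 and 802 and 757 rpm in Sro9-TAP untreated at all lengths.

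The ORF ends of the 5 genes, which encode the shared acidic tail, are close to identical. The last 30 nt of each ORF are shown because a read from this stretch may not name its gene. They run to the stop codon at chrXII:806796-806825 (+, RPP0), chrIV:309802-309831 (-, RPP1A), chrIV:230498-230527 (+, RPP1B), chrXV:254588-254617 (+, RPP2A) and chrIV:1239795-1239824 (+, RPP2B) of R64. Capitals mark the 25 of 30 positions that are identical in all 5.
RPP0: GAcGACATGGGTTTcGGTTTATTcGAtTAa
RPP1A: GAcGACATGGGTTTcGGTTTATTtGAtTAg
RPP1B: GAcGACATGGGTTTcGGTTTATTcGAcTAa
RPP2A: GAcGACATGGGTTTcGGTTTATTcGAcTAa
RPP2B: GAtGACATGGGTTTtGGTTTATTcGAtTAa
RPP1B and RPP2A are identical over their last 45 nt, and RPP2A and RPP2B share a run of 30 nt. Among kept clusters, 3, 1 on RPP0 and 2 on RPP1B, had a whole sequence found at more than 1 place in the genome, and they held 64 reads (0.742% of the kept reads). The RPP1B ones had 45 and 10 reads and lay near the ORF end. How many single reads of longer clusters over these ends fit more than 1 gene was not measured.

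Comparisons of conditions and of LARPs were fitted with edgeR's quasi-likelihood test over 2830 protein-coding genes. After H2O2 against untreated, 0 of the 5 stalk genes were called in Slf1-TAP, where 0% of all genes were called, and 0 of 5 in Sro9-TAP, where 0% of all genes were called. At an unadjusted p under 0.05 the counts were 0 of 5 stalk genes in each, with 173 of all genes in Slf1-TAP and 256 in Sro9-TAP. The Slf1-TAP log2 fold changes were 0.63 ± 0.84 (SE) for RPP1A, -0.63 ± 1.24 for RPP0 and -1.23 ± 0.83 for RPP2A. Those of RPP1B and RPP2B rested on libraries listed at 0 and are not given as folds. In Sro9-TAP they were -0.02 ± 0.82 for RPP2A, 0.26 ± 1.22 for RPP0, 0.48 ± 2.12 for RPP1B, -0.35 ± 0.83 for RPP1A and -0.94 ± 2.18 for RPP2B. With SEs of 0.82 to 2.18, these estimates leave the size of any change poorly known. DESeq2, run with the same library sizes, called RPP2B in Slf1-TAP (adjusted p = 0.0298) among 68 of all genes and no stalk gene in Sro9-TAP, where it called 5 of all genes.

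Slf1-TAP against Sro9-TAP gave 0 of 5 stalk genes called by edgeR after H2O2, with 0% of all genes called, and 0 of 5 in untreated cells, with 0% of all genes called. At an unadjusted p under 0.05 there were 991 genes after H2O2, with 2 of the stalk genes (RPP2A and RPP2B), and 720 in untreated cells, with 0 of the stalk genes. After H2O2, the log2 fold change of RPP2A was -2.83 ± 0.88 (edgeR adjusted p = 0.0874), that of RPP0 was -2.73 ± 1.31 (adjusted p = 0.166) and that of RPP1A was 0.85 ± 0.84. In untreated cells RPP0 had -1.84 ± 1.27 (adjusted p = 0.318) and RPP2A had -1.62 ± 0.84 (adjusted p = 0.265). DESeq2 called RPP2A (adjusted p = 0.0451) and RPP2B (adjusted p = 0.00246) lower in Slf1-TAP after H2O2, among 704 of all genes, and no stalk gene in untreated cells, where it called 263 of all genes. The median log2 difference over all genes was -5.92 after H2O2 and -4.94 in untreated cells, against -2.83 and -1.62 for the stalk genes. For the 132 other ribosomal protein genes the medians were -3.32 and -1.97, with 0 called in either direction. The all-gene medians are set by the many genes with no kept Slf1-TAP cluster. Library size was all kept reads, so the smaller share of Slf1-TAP reads on protein-coding genes enters each of these differences.

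As targets, defined by a kept cluster in both replicates, 3 of 5 stalk genes (RPP0, RPP1A, RPP2A) counted in Slf1-TAP H2O2 and 3 of 5 in Slf1-TAP untreated. All 5 counted in Sro9-TAP H2O2 and in Sro9-TAP untreated. Among the other ribosomal protein genes, targets made up 45.5% in Slf1-TAP H2O2, 68.2% in Slf1-TAP untreated, 97.0% in Sro9-TAP H2O2 and 98.5% in Sro9-TAP untreated. Among all 6027 protein-coding genes they made up 3.27, 4.93, 32.1 and 27.4% in the same order of groups. Of the 8 stalk base and assembly genes, 3 (RPL12A, RPL12B and RPL10) had a kept cluster in both replicates of Slf1-TAP H2O2 and the same 3 in Slf1-TAP untreated, against 7 in each condition of Sro9-TAP. MRT4 and SDO1 had no kept cluster in any Slf1-TAP library. Of the 7 genes for factors that act at or near the stalk, 5 had one in both replicates of Slf1-TAP H2O2 and 6 in Slf1-TAP untreated, against all 7 in each condition of Sro9-TAP. RPL12A, encoding the uL11 protein at the stalk base, had 121 and 31.8 rpm in Slf1-TAP H2O2 and 922 and 533 rpm in Sro9-TAP H2O2. TEF1, which encodes the elongation factor eEF1A, had 702 and 1432 rpm in Slf1-TAP H2O2 and 1171 and 1774 rpm in Sro9-TAP H2O2.

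Enrichment, the PAR-CLIP rpm per kb of coding sequence over the total RNA FPKM of WT cells in the same condition, set the reads against mRNA abundance. Under the length limit, RPP2A had the highest enrichment of the 5 in all 4 datasets. Its reads were divided by coding length, although 85.5 to 90.5% of its kept reads lay after the stop codon. With clusters of all lengths, RPP1B had 1.88 and RPP2A 1.80 in Sro9-TAP H2O2. Under the length limit again, RPP2A in Sro9-TAP had 1.45 after H2O2 and 1.02 untreated. The medians were 0.468 over 1918 targets and 0.372 over 1640 targets, so that 85.3 and 79.8% of targets were lower. The replicates behind the RPP2A means were 1.79 and 1.12 after H2O2 and 0.889 and 1.16 untreated. RPP0 had 0.304 after H2O2 and 0.169 untreated, below the target medians. RPP1A had 0.0830 and 0.0662, with only 4.17 and 3.6% of targets lower, but at all cluster lengths its value after H2O2 was 1.14, with 79.1% of targets lower. In Slf1-TAP, RPP2A had 0.205 after H2O2 and 0.334 untreated, against target medians of 0.155 and 0.166. The denominator came from untagged cells.

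In total RNA, no stalk gene passed the test in any of the 9 contrasts between conditions or strains. Their levels are given as CPM outside the rRNA locus, scaled by TMM. A CPM is a share of the library, so fewer transcripts of a gene per cell and more RNA of other genes cannot be told apart. RPP0 had 1672 to 4491 CPM (median 2468) in the 6 H2O2 libraries and 2557 to 6263 CPM (median 4209) in the 6 untreated ones. RPP2A had 456 to 1544 CPM (median 748) after H2O2 and 840 to 2333 CPM (median 1475) untreated. RPP1A had 485 to 1322 CPM (median 688) after H2O2 and 728 to 2125 CPM (median 1346) untreated. For each of the 5 genes the H2O2 and untreated libraries overlapped when strains were pooled. Within a strain, both H2O2 libraries were below both untreated ones for 1 of 5 genes in sro9Δ (RPP2A), against 27.3% of all 7378 features. The same held for 4 of 5 in slf1Δ (all but RPP2B), against 28.5%, and for 2 of 5 in WT (RPP0 and RPP1B), against 33%.

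RPP1B and RPP2B are given by library because RPP1B had the lowest estimated response to H2O2 in slf1Δ and WT, and RPP2B the one nearest to 0 in all 3 strains. RPP1B had 229 and 423 CPM in sro9Δ H2O2, against 264 and 644 CPM in sro9Δ untreated. It had 184 and 677 CPM in slf1Δ H2O2, against 819 and 1155 CPM in slf1Δ untreated. In WT it had 344 and 379 CPM after H2O2, against 469 and 985 CPM untreated. In sro9Δ the conditions overlapped for RPP1B. RPP2B had 762 and 1052 CPM in sro9Δ H2O2, against 557 and 1294 CPM in sro9Δ untreated. It had 645 and 1718 CPM in slf1Δ H2O2, against 1618 and 1940 CPM in slf1Δ untreated. In WT it had 922 and 1207 CPM after H2O2, against 1078 and 1744 CPM untreated. The conditions overlapped for RPP2B in all 3 strains.

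**Figure D4:**
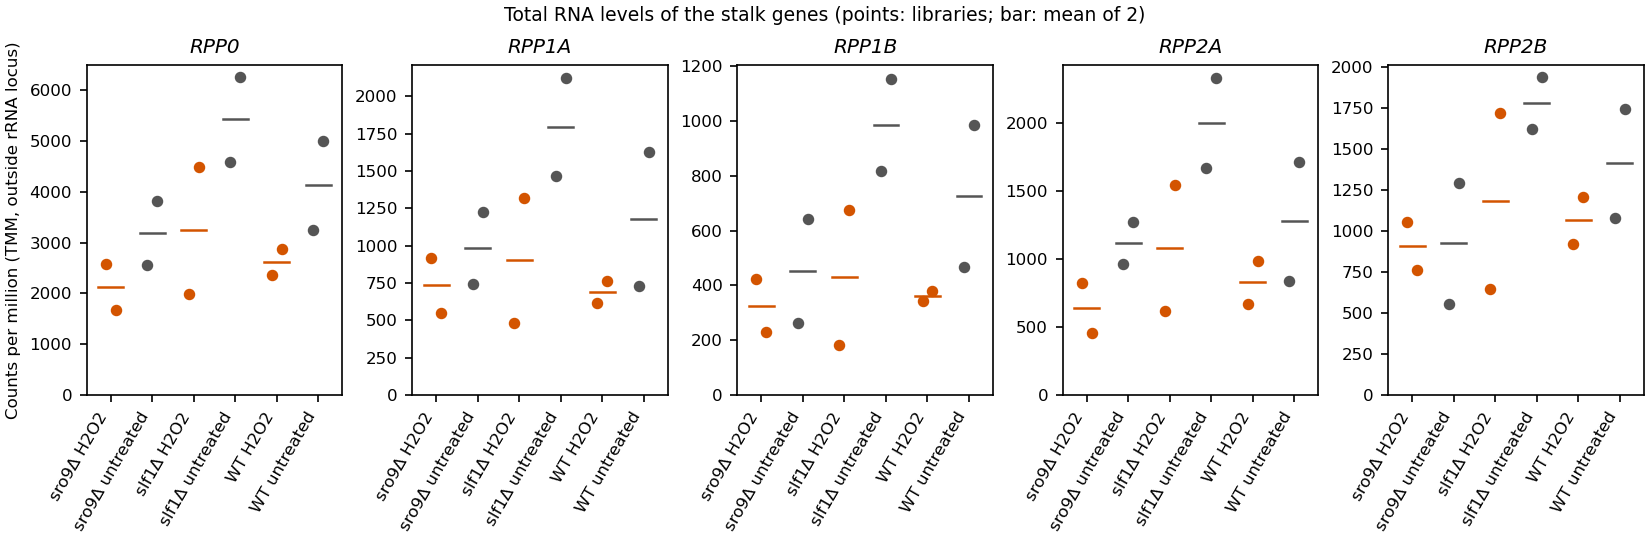
Total RNA level (TMM-scaled CPM outside the rRNA locus) of each stalk gene in the 12 untagged libraries (points, with a bar at the mean of 2), sro9Δ and slf1Δ left of WT and H2O2 left of untreated within a strain. Replicates of a group often lie as far apart as the conditions do, and RPP2B overlaps between conditions in all 3 strains.

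After H2O2 against untreated, edgeR called 0 of 5 stalk genes in sro9Δ (16.2% of 7378 features called), 0 of 5 in slf1Δ (17.1% called) and 0 of 5 in WT (35.7% called). The estimated log2 fold change was below 0 for all 5 genes in all 3 strains, without passing the test. It was -0.59 ± 0.49 (SE) for RPP0 in sro9Δ, -0.74 ± 0.49 in slf1Δ and -0.66 ± 0.49 in WT. RPP1B had -0.50 ± 0.54 in sro9Δ, -1.14 ± 0.54 in slf1Δ (edgeR adjusted p = 0.168) and -1.01 ± 0.54 in WT (adjusted p = 0.158). RPP1A had -0.43 ± 0.50 in sro9Δ, -0.97 ± 0.50 in slf1Δ and -0.78 ± 0.50 in WT. For every member but RPP2A, the estimate was nearest to 0 in sro9Δ. RPP2A had -0.81 ± 0.49 in sro9Δ, -0.87 ± 0.49 in slf1Δ and -0.63 ± 0.49 in WT. RPP2B had -0.04 ± 0.49 in sro9Δ, -0.57 ± 0.49 in slf1Δ and -0.41 ± 0.49 in WT. With SEs near 0.50 on the log2 scale, changes of 2-fold or less in these genes were not detectable with 2 libraries per group. Without slf1Δ H2O2 replicate 2, which leaves the smallest library as the only one of its group, RPP1B was called in slf1Δ at -2.43 (adjusted p = 0.0338). DESeq2 called 0 of the 5 genes in all 9 contrasts, and 0 of the 45 edgeR tests had an unadjusted p under 0.05.

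**Figure D5:**
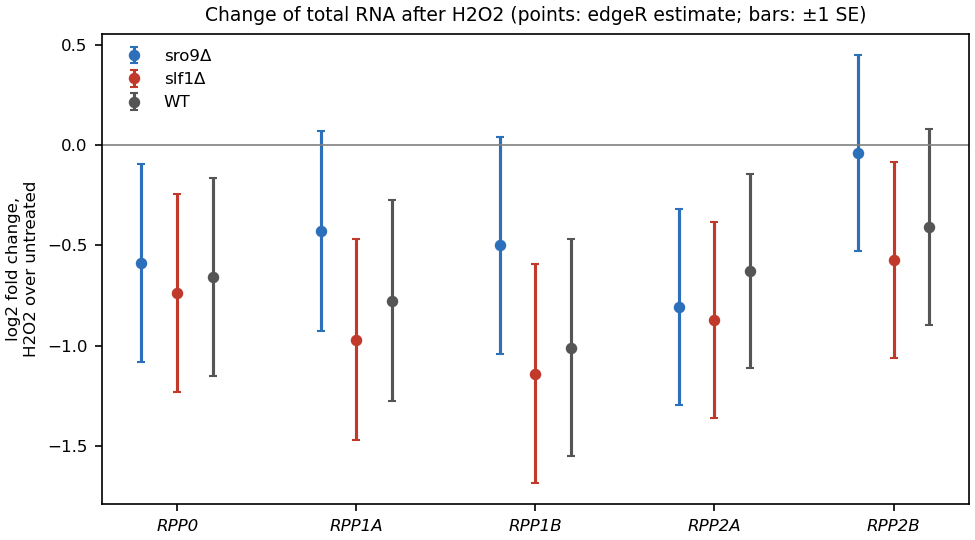
Log2 fold change after H2O2 against untreated for each stalk gene (points, bars are SE) in sro9Δ, slf1Δ and WT, from the edgeR fit with 2 libraries per group. All 15 estimates are below 0 and none passes the test, with RPP2B in sro9Δ nearest to 0 at -0.04 and RPP1B in slf1Δ lowest at -1.14.

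The other genes of the ribosome gave the setting. In WT, 46 of the 132 other cytosolic ribosomal protein genes fell after H2O2 and 0 rose, with a median log2 fold change of -1.11, against 16.5% of all features called lower, 19.2% called higher and a median of 0.02 over all features. The median of the stalk genes in WT was -0.66, and 79 of the 132 had a lower estimate than RPP1B, 103 than RPP1A, 115 than RPP0, 116 than RPP2A and 126 than RPP2B. In sro9Δ, 17 of the 132 fell and 0 rose (5.39% of all features called lower, 10.8% higher), with a median of -0.96, against -0.50 for the stalk genes. In slf1Δ, 5 of the 132 fell and 0 rose (5.22% called lower, 11.8% higher), with a median of -0.72, against -0.87 for the stalk genes, where 16 had a lower estimate than RPP1B and 87 than RPP2B. Of 8 stalk base and assembly genes, 5 fell in WT and 0 in sro9Δ and slf1Δ. MRT4, whose product occupies the P0 site on precursor subunits, fell by 1.75 on the log2 scale in WT (edgeR adjusted p = 0.00248). YVH1, which encodes the phosphatase that releases Mrt4, fell by 1.42 (adjusted p = 0.00232), and RPL12A fell by 1.52 (adjusted p = 0.0141). The other 2 that fell were TIF6 and EFL1 (listed as RIA1), which act in maturation of the large subunit. Of 7 genes for factors that act at or near the stalk, 3 fell in WT, YEF3 (-1.86), RLI1 (-1.66) and FUN12 (-1.07), with RLI1 also lower in sro9Δ (-1.07) and 0 in slf1Δ. The 4 genes of CK2, the kinase that phosphorylates the acidic tails, gave 0 calls in the 3 strains. Of the 4 genes of the Gcn2 pathway, GCN1 and GCN2 fell in WT, 0 were called in sro9Δ and GCN4, the transcription factor gene of the pathway, rose in slf1Δ (1.07).

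Deletion of either LARP gene left no called change in stalk mRNA. After H2O2, sro9Δ against WT gave 0 of 5 (0.0407% of features called) and slf1Δ against WT gave 0 of 5 (0.718% called). In untreated cells, sro9Δ against WT gave 0 of 5 (0.203% called) and slf1Δ against WT gave 0 of 5 (0.136% called). So few features passed that 0 of 5 says little of these genes. In untreated cells all 5 estimates were below 0 in sro9Δ, from -0.19 for RPP2A to -0.66 for RPP1B, and all 5 were above 0 in slf1Δ, from 0.33 for RPP2B to 0.65 for RPP2A. The shift had the same sign for the 132 other ribosomal protein genes, with medians of -0.53 in sro9Δ and 0.19 in slf1Δ. Both strains were set against the same WT libraries. The response to H2O2 did not differ detectably between a deletion strain and WT for any of the 5 genes (0 of 5 in each, 0% of features called in each; 554 features in sro9Δ and 878 in slf1Δ had an unadjusted p under 0.05, with 0 stalk genes). DESeq2 called 15 and 49 features in these contrasts.

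The 5 genes varied together across the 12 libraries, with pairwise Pearson r of 0.830 to 0.978 between log values, which describes libraries that share strains and conditions. Per length (FPKM from TMM-scaled CPM and coding length), RPP1B was the lowest of the 5 in 12 of 12 libraries, at 572 to 3599 FPKM. The highest was RPP2B in 5 libraries, RPP2A in 4 and RPP0 in 3, so the order among these genes did not hold beyond the spread of libraries. The features whose log CPM followed the mean log CPM of the 5 genes most closely over the 12 libraries (Pearson r), among 5743 compared, were YLR339C (r = 0.994), TEF1 (0.990), TEF2 (0.988), RPL4A (0.988) and RPL4B (0.988). YLR339C lies by its systematic name beside RPP0 on the opposite strand, and its counts were 0.453 to 0.556 of those of RPP0. Whether counting used the strand is not given in the sources used here, so reads of the 2 features cannot be told apart.

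The ratio of RPP2B to RPP1B counts was the only 1 of the 10 ratios between members in which all 6 H2O2 libraries lay on one side of all 6 untreated libraries. It was 2.49 and 3.32 in sro9Δ H2O2, against 2.11 and 2.01 in sro9Δ untreated. It was 3.51 and 2.54 in slf1Δ H2O2, against 1.98 and 1.68 in slf1Δ untreated. In WT it was 2.68 and 3.19 after H2O2, against 2.30 and 1.77 untreated. On the log2 scale the mean was 1.55 ± 0.21 after H2O2 and 0.97 ± 0.17 untreated (SD, n = 6 each), a difference of 0.58 by an exact two-sided permutation test at p = 0.00216, the smallest it can give, and 0.0216 adjusted over the 10 pairs. The test exchanged libraries freely across strains and ignored the split cultures. Its p-value thus takes as independent libraries that were not. The ratio of RPP2B to RPP1A also separated the conditions within each of the 3 strains, but not when strains were pooled. It was singled out after the values were seen. Among 8646 pairs of other ribosomal protein genes, 12.9% were equally free of overlap, so 1 of 10 is near the background and is no property of the stalk genes. Without the 2 smallest libraries the difference was 0.54 (exact permutation p = 0.00794).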

How the data were processed

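PAR-CLIP clusters and total RNA counts were analysed as deposited by the authors. The authors' clusters came from PARalyzer on reads mapped with Bowtie 1.2.0 after Trim Galore, per the submitters' processing notes, and list reads and T-to-C conversion counts per cluster. All 36054 cluster sequences equalled the R64 reference at their coordinates. The authors counted reads per feature with featureCounts for the deposited total RNA counts, and its strand setting is not given in the sources used here. Deposited PARalyzer score and fraction columns were not used.

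Clusters of 11 to 100 nt with at least 5 reads and 2 conversions were placed by mode, and merged between replicates where modes lay under 10 nt apart. Reads of kept clusters were summed per gene, with the total of kept reads as library size. For total RNA, 39 rRNA-locus features, up to 94.8% of a library, were left out, low features were filtered (filterByExpr, 7378 left) and TMM was applied. Total RNA groups (12 libraries) and PAR-CLIP groups (8 libraries) were each fitted jointly by group with edgeR 4.0.16 (glmQLFit, glmQLFTest) in R 4.3.3, with Benjamini-Hochberg adjustment over all features and a threshold of 0.05. Both fits were also run on simulated counts with large known changes. The spread there was a fixed value not estimated from these data, so that run does not measure power here. Single values were compared by exact permutation in SciPy 1.17.1. Alternatives were DESeq2 1.42.0, other filters, a replicate block, each replicate left out, other cluster limits, clusters of all lengths and tagged total RNA as denominator.

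Named genes are the 5 members, with at most 4 from each list of related genes and the 5 features most correlated with the members' mean log CPM. Members and lists were chosen with earlier results of these data known. The 8 tagged total RNA libraries, whose labels conflict with their SRX1 counts, were used only as descriptions and as that denominator. Depth ranges stand in the report, and counting intervals would cover counting error only.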

Additional observations from a re-analysis of the deposited data

Results flagged for a closer look

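Reads were also found outside the sites that entered the comparisons. RPP2B had clusters with modes 53 to 63 nt before the start codon, with 216 reads over 5 libraries, which count in none of the comparisons above because placement began at the start codon. They held 73 and 59 reads in Sro9-TAP H2O2, 45 and 23 in Sro9-TAP untreated and 16 in Slf1-TAP untreated replicate 2. The stretch is shown because the clusters of all 5 libraries share it, at chrIV:1239418-1239447 on the + strand of R64, with the shared 27 nt in capitals.
RPP2B before the start codon: agTCCGCGAATTTATTACCGCTTAAACTGa
RPP1A had clusters with modes 10 or 11 nt before the start codon, with 971 reads over 3 libraries. They held 236 reads in Sro9-TAP H2O2 replicate 1 and 319 and 416 reads in Sro9-TAP untreated. The one with 416 reads was 283 nt long, so it runs far into the ORF. No Slf1-TAP cluster had its mode there. In Slf1-TAP untreated replicate 1, however, a 120-nt RPP1A cluster with 30 reads ran from -34 to 86 nt over the same stretch, with its mode at 39 nt.

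On all 5 stalk genes, clusters over 100 nt held 5773 reads that the length limit removed.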

How the results depend on the processing

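Of 855 total RNA values of single stalk genes under 19 alternatives, 854 kept their side of the threshold and 1 became a call, RPP1B in slf1Δ. The count of stalk genes called after H2O2 in slf1Δ was 0 to 1 with each replicate left out. Of 320 PAR-CLIP values under 16 alternatives, 316 kept their side and 4 became calls. DESeq2 called 1 stalk gene in Slf1-TAP after H2O2 against untreated and 2 in Slf1-TAP against Sro9-TAP after H2O2. Uncalled estimates changed sign in 56 and 22 of these values. The number of sites with a 20-read minimum was 6 in Slf1-TAP H2O2 and 8 in Slf1-TAP untreated, and sites in both replicates numbered 2, 2, 7 and 4 in Slf1-TAP H2O2, Slf1-TAP untreated, Sro9-TAP H2O2 and Sro9-TAP untreated. The median enrichment of the stalk genes was 0.0460 in Slf1-TAP H2O2 (0.0493 to 0.0633 with each replicate left out), 0.0678 in Slf1-TAP untreated (0.378 over tagged total RNA, 0.00582 without replicate 2 and 0.136 without replicate 1), 0.304 in Sro9-TAP H2O2 (0.509 over tagged total RNA, 0.348 to 0.376 with each replicate left out, 1.14 with all cluster lengths) and 0.223 in Sro9-TAP untreated (1.19 over tagged total RNA, 0.305 with all lengths).

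The study's methods describe split cultures for total RNA, but the labels do not match the parts of a culture. Replicate numbers were therefore not taken to pair the libraries, and the main fit ignored this pairing. Deviations of same-numbered libraries correlated at -0.116 in WT, -0.0474 in sro9Δ and 0.249 in slf1Δ, and at -0.0723 in Slf1-TAP and -0.131 in Sro9-TAP. With a replicate block, 0 stalk genes were called in the 9 total RNA contrasts, and 1 (RPP2B, adjusted p = 0.0170) in Slf1-TAP against Sro9-TAP after H2O2, where 612 of all genes were called against 0 without it. In total RNA the block moved the features called in slf1Δ against WT after H2O2 to 139, against 53, and in the difference of response to 39, against 0.

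Counts over all features moved more. Leaving out each replicate gave 971 features at the lowest in WT after H2O2 (2632 with all libraries, without WT H2O2 replicate 1), 391 in sro9Δ (1193) and 521 to 1916 in slf1Δ (1258, and 2014 from only the groups compared). Without WT untreated replicate 2 there were 628 in sro9Δ against WT untreated (15), 1089 in slf1Δ (10), 512 in the sro9Δ difference of response (0) and 903 in that of slf1Δ (0). After H2O2, leaving out each replicate gave 1 to 44 in sro9Δ against WT (3, and 73 from only the groups compared) and 0 to 447 in slf1Δ (53, and 159). DESeq2 gave 39, 28, 23 and 90 for sro9Δ untreated, slf1Δ untreated, sro9Δ H2O2 and slf1Δ H2O2 against WT. Without the 2 smallest libraries, sro9Δ after H2O2 gave 745. In PAR-CLIP, Slf1-TAP against Sro9-TAP gave 272 genes after H2O2 and 213 untreated with a 20-read minimum (0 in each otherwise), and 535 and 542 after H2O2 without Slf1-TAP untreated replicate 1 or replicate 2. The cause was not tested.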

Other observations

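In the tagged total RNA, the ratio of RPP2B to RPP1B counts was 2.17 and 2.53 in Slf1-TAP libraries labelled H2O2 and 3.01 and 2.34 in those labelled untreated. It was 2.34 and 2.39 in Sro9-TAP libraries labelled H2O2 and 3.08 and 2.95 in those labelled untreated. SRX1 was at 1.29 and 0.977 CPM in the Slf1-TAP libraries labelled H2O2 and at 867 and 408 CPM in those labelled untreated. In Sro9-TAP libraries it was at 3.61 and 3.45 CPM where labelled H2O2 and at 1022 and 1066 CPM where labelled untreated. The labels were kept as given.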
